A study of Mus musculus with 5 samples.

Results

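The comparison set 2 annotated neuron types of mouse lumbar dorsal root ganglia (DRG) against each other, the NP_Mrgprd nociceptors and the Th neurons. Its members were the cells that the deposited annotation calls NP_Mrgprd, 900 cells, and those that it calls Th, 232 cells, which together made up 1132 of all 3352 cells (33.8%). The ganglia came from 5 untreated wild type C57BL/6 mice, 3 males and 2 females, at an age of 18 weeks, dissociated with enzymes and captured with the Chromium 3′ assay, which counts transcripts by unique molecular identifiers (UMIs). All mice belonged to 1 condition, so both types were measured in the same 5 libraries, each taken as 1 mouse and numbered 1 to 5 by its identifier in the cell names. No sample label names these identifiers, and no sex was assigned to a library. Within each library the UMIs were added up over the cells of each type, which gave 5 sums for NP_Mrgprd and 5 for Th. Libraries 1 to 5 held 36, 128, 83, 190 and 463 NP_Mrgprd cells and 15, 58, 38, 61 and 60 Th cells. The sums ran from 4817413 to 43923828 UMIs in NP_Mrgprd and from 1037872 to 4485331 in Th. Among the 1132 cells, 1 cell barcode occurred in more than 1 library. The types were defined by the authors from clusters of the same counts, so p-values of genes that shaped the clusters can be too small. A p-value here sets a difference between types against its spread over libraries and does not bear on whether the types exist.

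Both types are small-diameter C-fibre neurons that innervate the skin. The NP_Mrgprd neurons are the classical non-peptidergic nociceptors, which end as free nerve endings in the epidermis and carry MRGPRD, a G protein-coupled receptor activated by beta-alanine. The Th neurons are the C-fibre low-threshold mechanoreceptors, which end around hair follicles, respond to gentle touch and express tyrosine hydroxylase, the rate-limiting enzyme of catecholamine synthesis. Both arise from precursors that depend on the transcription factor RUNX1 and both keep the receptor tyrosine kinase RET in the adult.

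The genes that name the types both lie on mouse chromosome 7. Their promoters, the 250 bases before the annotated start, are shown because Mrgprd and Th carry the contrast between the types. The sequences are those of RefSeq on GRCm38.p6, written 5′ to 3′ on the strand of the gene, at chr7:145314585-145314834 on the plus strand for Mrgprd and at chr7:142899996-142900245 on the minus strand for Th. Capitals mark the cAMP response element TGACGTCA.
Mrgprd: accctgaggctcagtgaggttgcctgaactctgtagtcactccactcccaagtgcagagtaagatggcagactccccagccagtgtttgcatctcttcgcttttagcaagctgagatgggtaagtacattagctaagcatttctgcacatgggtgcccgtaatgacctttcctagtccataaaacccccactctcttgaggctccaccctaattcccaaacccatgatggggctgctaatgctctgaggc
Th: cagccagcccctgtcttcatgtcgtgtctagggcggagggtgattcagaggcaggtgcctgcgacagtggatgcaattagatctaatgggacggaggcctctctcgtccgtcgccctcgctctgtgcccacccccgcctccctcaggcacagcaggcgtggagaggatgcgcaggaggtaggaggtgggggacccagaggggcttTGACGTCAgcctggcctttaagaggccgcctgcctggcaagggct
The 8 letters TGACGTCA read the same on both strands and began 45 bases before the start of Th. They were found in 1.55% of all 32851 promoter windows of this length, counted window by window. Of the 8352 genes tested that had a window, 3.32% held them in at least 1 window. These shares count different units. Of the other letters searched on both strands, TGTGGT (the core bound by RUNX factors) was in 14.05% of all windows, TATAAA in 12.4%, ATGCAAAT in 1.6% and TAATTA in 4.84%. None of the 5 was found in the window of Mrgprd and none but the cAMP response element in that of Th, which says only that these letters are not in these windows. Only 728 of 937 genes higher in NP_Mrgprd and 868 of 1128 higher in Th had a window, so a comparison of motif shares between the sets was void.

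Mrgprd and Th separated the types in every library. Levels are given as CPM, the UMI count of a gene per 1000000 UMIs of its sum, with TMM factors over the sums of all types. Mrgprd stood at 304, 266, 275, 253 and 248 CPM in NP_Mrgprd cells of libraries 1 to 5 and at 0.93, 0.225, 0.789, 1.28 and 1.04 CPM in Th cells. Th stood at 913, 929, 616, 679.8 and 539 CPM in Th cells and at 0.884, 7.23, 1.14, 1.25 and 0.668 CPM in NP_Mrgprd cells. For both genes the lowest sum of the named type lay far above the highest of the other, and library 2 was the high value of Th among the NP_Mrgprd sums. The log2 fold changes, written throughout as NP_Mrgprd minus Th with their standard errors, were 8.36 ± 0.20 for Mrgprd (adjusted p = 2.8e-11) and -8.55 ± 0.36 for Th (adjusted p = 1.5e-09, edgeR's quasi-likelihood test with Benjamini-Hochberg adjustment). In single cells, a UMI of Mrgprd was found in 98.4% of NP_Mrgprd cells (886 of 900, exact Clopper-Pearson 95% interval 97.4 to 99.2%) and in 4.74% of Th cells (11 of 232, 2.39 to 8.33%). No Th cell held more than 1 UMI of it. Satellite glia, which should lack it, had a UMI in 4.82% of cells at a median depth of 17729 UMIs, against 56281 in Th cells, so the share in Th cells did not exceed the background. Of the Th cells, 91.8% (213 of 232, 87.5 to 95%) held a UMI of Th at a median of 32.5 UMIs. The share was 6.89% of NP_Mrgprd cells (62 of 900, 5.32 to 8.75%), where the median depth was 105150 UMIs, and 2.01% of satellite glia. It reached 64.4% in PEP1_Dcn and 45.2% in PEP3_Trpm8 neurons, at medians of 2 and 0 UMIs per cell. Detection of Th was thus not particular to the type that carries its name, but its median count was far lower in these neurons. In 19 NP_Mrgprd cells, from 4 of the 5 libraries, the level of Th reached the 10th percentile of Th cells, and without these cells the log2 fold change of Th was -10.18. It was -9.39 without library 2, -9.24 with equal numbers of cells per library and -7.67 with cells thinned to 20000 UMIs, and that of Mrgprd was 9.88 with thinned cells. No Th cell reached the 10th percentile of NP_Mrgprd cells in Mrgprd. These intervals cover counting error only.

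Th cells held fewer UMIs than NP_Mrgprd cells of the same mouse. The median UMIs per cell were 138434, 129404, 93406, 109730 and 99204 in NP_Mrgprd and 72805, 70110, 61037.5, 52014 and 47431 in Th, and NP_Mrgprd was higher in 5 of 5 libraries, by 1.88-fold on average. Detected genes per cell were also higher in NP_Mrgprd, at 7850 ± 352 against 7043 ± 473 (SD, n = 5), in 5 of 5 libraries. When every cell was thinned to 20000 UMIs, the order turned, to 4312 ± 47.9 genes in NP_Mrgprd and 4606 ± 31.1 in Th, with Th higher in 5 of 5 libraries. At this depth 13 NP_Mrgprd and 8 Th cells were too shallow and were left out. Mitochondrial genes took 3.79% ± 0.311 of the UMIs in the median NP_Mrgprd cell and 6.88% ± 0.973 in the median Th cell, again the same order in 5 of 5 libraries. Each of these 4 differences had an exact two-sided sign-flip p of 0.0625, the smallest that 5 libraries allow. Above 10% mitochondrial UMIs lay 43 NP_Mrgprd and 29 Th cells, and their part in the results was checked by leaving them out. Fewer UMIs per captured cell and less RNA in a cell cannot be told apart here.

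**Figure D1:**
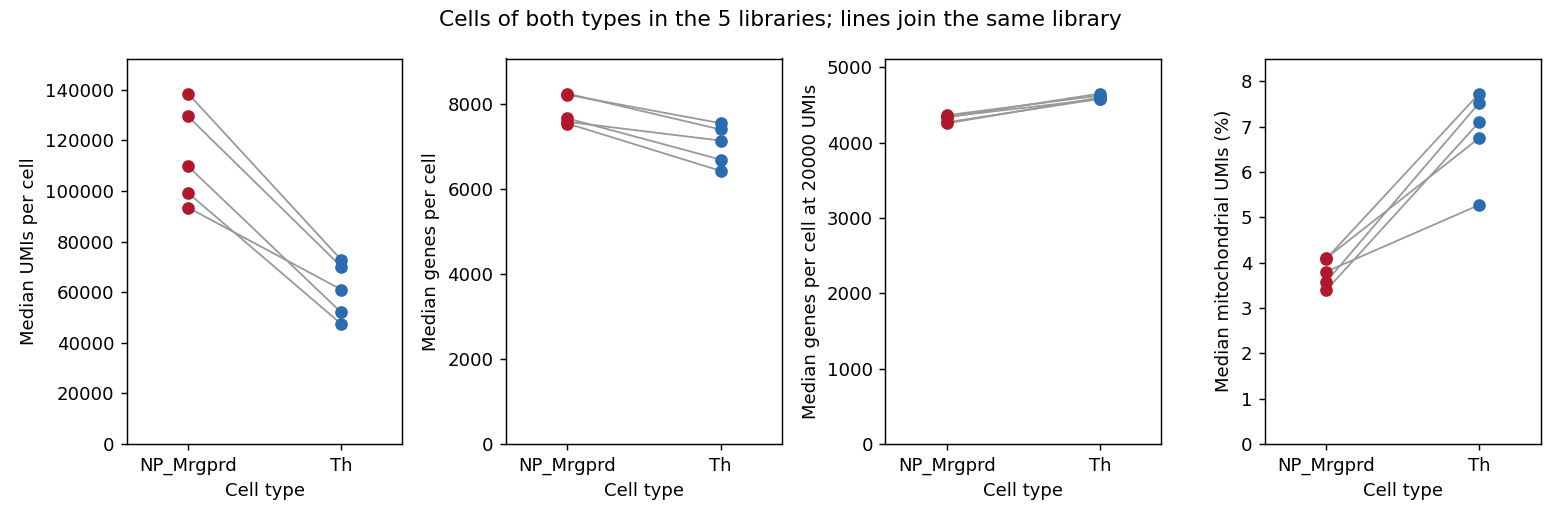
Median UMIs, median detected genes, median detected genes after thinning to 20000 UMIs, and median mitochondrial share of UMIs per cell, in NP_Mrgprd and Th cells of the 5 libraries (points, with lines joining the types of 1 library). UMIs and genes fall from NP_Mrgprd to Th in all 5 libraries, while thinned genes and the mitochondrial share rise in all 5.

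Across the transcriptome the types differed in 2065 of 10368 genes tested (19.9%). A gene was called when its adjusted p was under 0.01, its fold at least 2 and its UMIs present in at least 25% of the cells of the higher type. By this rule 937 genes (9.04% of those tested) were higher in NP_Mrgprd and 1128 (10.9%) higher in Th. At least 4-fold differences were found in 378 and 556 of them, and at least 16-fold in 160 and 236. The median size of the called log2 fold changes was 1.64 in NP_Mrgprd and 1.98 in Th, while the median over all genes tested was -0.01. The 5 sums of both types did not overlap in 900 of the 937 and in 1088 of the 1128 called genes, beside 41.0% of all genes tested. Of the genes tested, 82.1% had more UMIs per cell in the deeper NP_Mrgprd cells. All 1128 genes called higher in Th had more raw UMIs per Th cell. The 2-fold limit largely fixes this in advance, because median UMIs per cell differed by only 1.88-fold on average. For 6707 genes (64.7%) the 95% interval of the fold lay within 2-fold. The genes with the highest levels whose interval lay within 1.2-fold were Tppp3, a tubulin polymerization-promoting protein (log2 fold change -0.05 ± 0.09), Hsp90ab1, a chaperone (-0.02 ± 0.10), Rgs10, a regulator of G protein signaling (-0.05 ± 0.08), Rpl3, a ribosomal protein (-0.01 ± 0.10), and Eif1, a translation initiation factor (-0.07 ± 0.08).

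**Figure D2:**
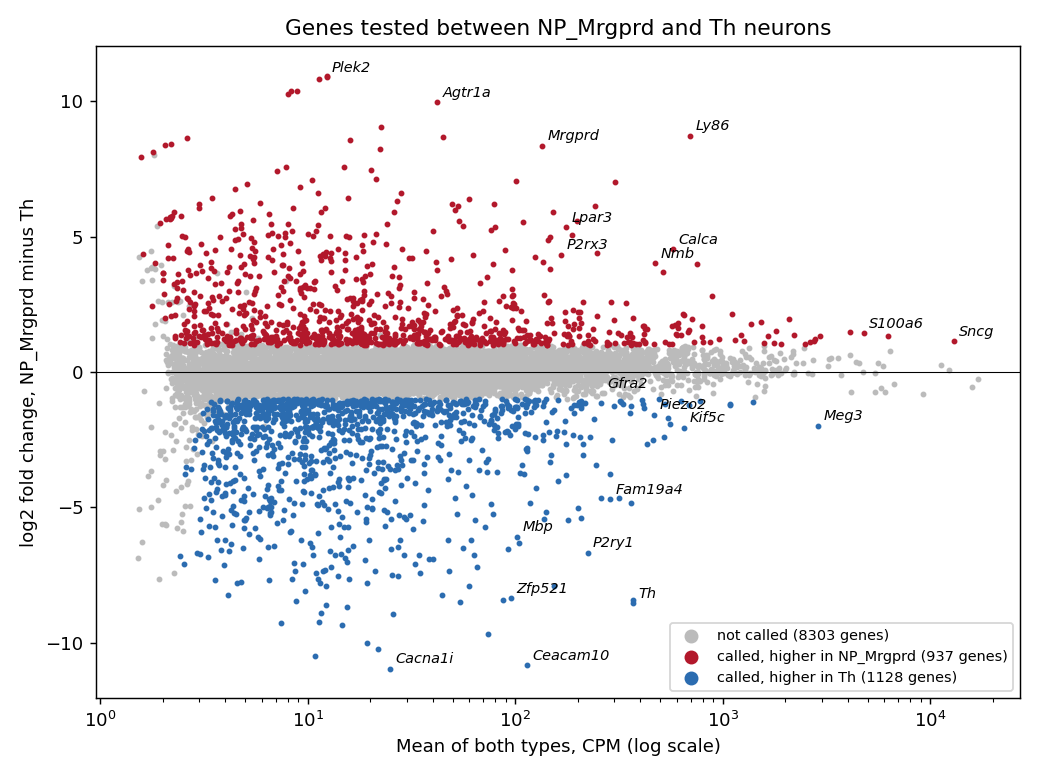
Mean level of both types (CPM, log axis) against the log2 fold change (NP_Mrgprd minus Th) of the 10368 genes tested, with the 937 genes called higher in NP_Mrgprd in red, the 1128 called higher in Th in blue and the others in grey. Called genes reach log2 fold changes near 11 in both directions, and most of the largest changes are in genes of low to middle level. The plotted fold of a gene with no UMI in one type depends on the prior count of the fit and is no estimate.

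The marker genes of both types were then read. The authors used marker genes of these clusters to name the types, and the lists were chosen with earlier results known. The directions of these genes are therefore no independent check of the labels. Of 13 markers of NP_Mrgprd, 12 could be tested and 12 were higher in NP_Mrgprd. The lysophosphatidic acid receptor Lpar5 was too low, with 25 UMIs in the deeper NP_Mrgprd sums and 0 in Th. Lpar3, the other lysophosphatidic acid receptor of the list, stood at 307, 287, 313, 402 and 412 CPM in NP_Mrgprd and 13, 6.3, 10.7, 9.31 and 6.25 CPM in Th (log2 fold change 5.34 ± 0.17, adjusted p = 2.5e-10). P2rx3, the ATP-gated channel P2X3, was at 304, 339, 326, 307 and 311 CPM against 5.58, 31, 10.7, 20.6 and 9.03 CPM (4.33 ± 0.24, adjusted p = 1.7e-08). Neither gene overlapped between the types, and the Th sums of P2rx3 were the more spread. Gna14, a G protein alpha subunit of the Gq class, was at 197, 188, 174, 213 and 228 CPM against 0, 0.45, 1.18, 0.963 and 4.52 CPM (7.07 ± 0.27, adjusted p = 8.7e-10, 8.04 without library 5), with library 5 the highest of the Th sums. The complement inhibitor Cd55 was at 505, 438, 453, 447 and 537 CPM against 23.3, 19.8, 22.1, 20.9 and 27.1 CPM (4.39 ± 0.10, adjusted p = 1.7e-11). Prkcq, protein kinase C theta, was at 149 ± 9.61 CPM against 4.68 ± 2.79 CPM (SD, n = 5; 5.23 ± 0.21, adjusted p = 1.3e-09). Markers that Th cells also expressed were the semaphorin 7A receptor Plxnc1 (169 ± 23.2 against 32.4 ± 7.27 CPM, log2 fold change 2.38 ± 0.10) and the sodium channel Scn11a, described below. Ptgdr, the prostaglandin D2 receptor (1.06 ± 0.12), and the membrane protein Tmem45b (1.03 ± 0.13) were close to the 2-fold limit. Without library 4 their log2 fold changes were 0.94 and 0.91, and without library 5 that of Tmem45b was 0.93, all under the limit.

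Th markers were higher in Th in 11 of 12 genes tested. Slc17a8, the vesicular glutamate transporter VGLUT3, stood at 75.3, 65.9, 66.7, 87 and 86.5 CPM in Th and 0, 0.413, 0.71, 0.909 and 0.72 CPM in NP_Mrgprd (log2 fold change -6.90 ± 0.20, adjusted p = 1.2e-10). Fam19a4, which encodes the secreted chemokine-like protein TAFA4, was at 556, 522, 526, 560.0 and 594 CPM against 19.5, 21.8, 19.2, 21.8 and 23.5 CPM (-4.70 ± 0.10, adjusted p = 1.2e-11), with a narrow spread over the libraries of both types. The ADP receptor P2ry1 was at 361, 650.1, 412, 439 and 347 CPM against 3.98, 6.82, 4.83, 3.47 and 3.14 CPM (-6.68 ± 0.12, adjusted p = 6.8e-12), and library 2 was the highest in both types. The zinc finger transcription factor Zfp521 was at 177, 189.6, 141, 241 and 202 CPM against 0.442, 1.38, 0.426, 0.398 and 0.385 CPM (-8.36 ± 0.24, adjusted p = 1.1e-10). In this gene too the types did not overlap. Piezo2, the mechanically gated channel of touch neurons, was expressed by both types, at 605, 718, 577, 844 and 757 CPM in Th and 210.3, 252, 239.9, 231 and 233 CPM in NP_Mrgprd (-1.58 ± 0.09, adjusted p = 3.4e-08). Pou4f2, the POU homeodomain factor BRN3B, was at 48.5 ± 5.08 CPM in Th against 3.99 ± 0.454 CPM (SD, n = 5; -3.60 ± 0.11), and the cadherin Cdh9 at 12 ± 1.48 against 0.878 ± 0.528 CPM (-4.16 ± 0.28). Ceacam10, an immunoglobulin superfamily protein, varied between libraries, at 415, 184, 331, 95.4 and 109.8 CPM in Th, and had a UMI in 61.2% of Th cells. It was at 0, 0.0688, 0.284, 0 and 0.0771 CPM in NP_Mrgprd (6 UMIs in all). The exception in the list was Gfra2, the neurturin receptor, at 298, 340.1, 303, 357 and 368 CPM in Th and 194, 202, 190.1, 185 and 193 CPM in NP_Mrgprd. Its sums did not overlap, but its log2 fold change of -0.79 ± 0.08 (adjusted p = 4.8e-06) was under the 2-fold limit. The calcium channel Cacna1h and the potassium channel Kcnd3 of the list are given with the other channels.

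**Figure D3:**
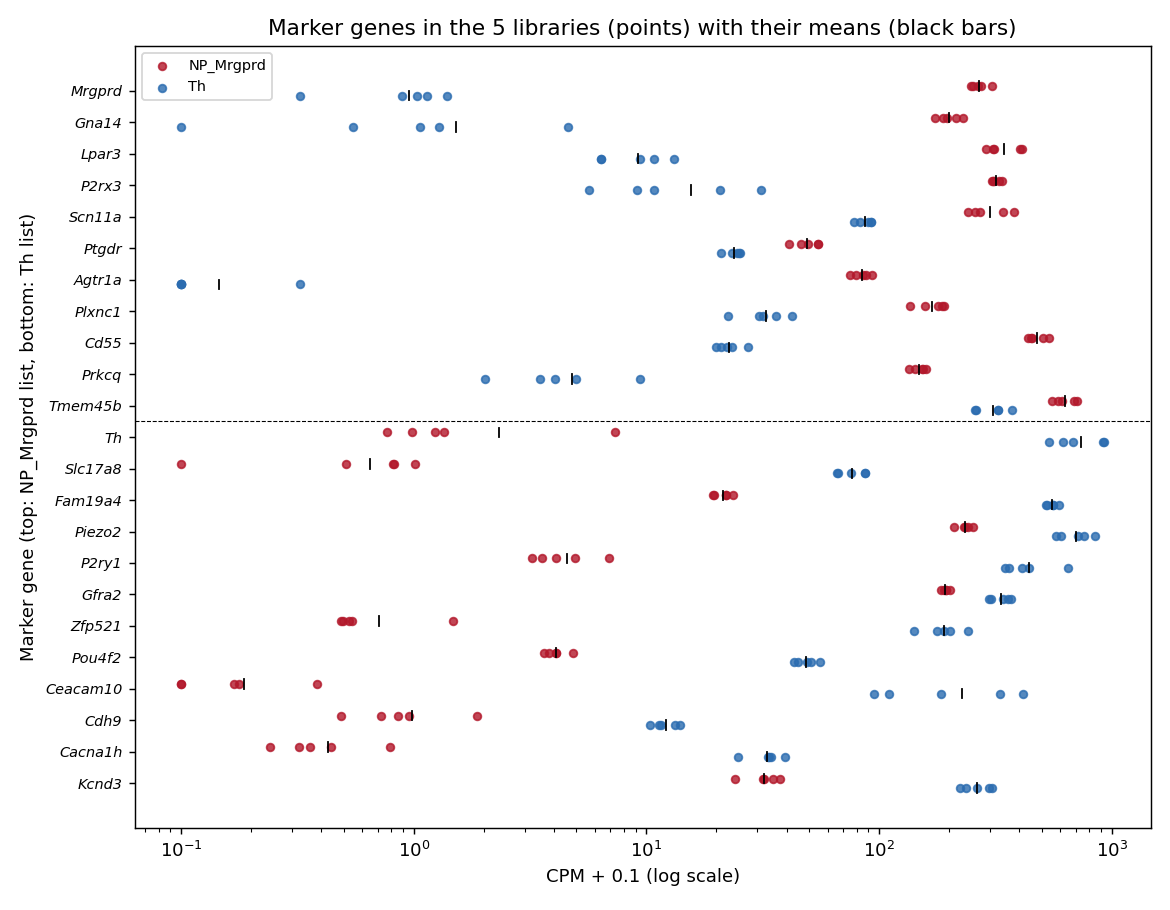
Levels of the markers named in the text for NP_Mrgprd (above the dashed line) and Th (below) in the 5 libraries, as CPM + 0.1 on a log axis, with NP_Mrgprd in red, Th in blue and the mean as a black bar. The red and blue points do not overlap in any gene shown, and the distance is smallest in Tmem45b, Ptgdr and Gfra2.

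Beyond the marker lists, several genes were near the limit of detection in one of the types. Of the 10 genes with the largest fitted folds in NP_Mrgprd, 6 had no UMI in any of the 232 Th cells, and their folds are given as bounds against a floor of 3 UMIs over the group. Plek2, a pleckstrin family protein, was at least 121-fold higher in NP_Mrgprd, 2310002F09Rik at least 112-fold, Gm765 at least 96.4-fold, Mab21l1, a gene of the Mab-21 family, at least 83.8-fold, the kallikrein-related peptidase Klk8 at least 79-fold and the chitinase Chit1 at least 72.7-fold. The angiotensin II receptor Agtr1a stood at 79.2, 74.8, 87.7, 93 and 85.2 CPM in NP_Mrgprd, with 7015 UMIs against 1 in Th, a ratio of 1193 [214 to 47131]. The cytochrome P450 gene Cyp2j12, which has close paralogs, had 3689 UMIs against 1 (627 [113 to 24788]), and Otoa, known from the inner ear, 7877 against 3 (447 [153 to 2166]). Ly86, a partner of the Toll-like receptor homolog RP105, was the most abundant of them, at 1348, 1499, 1062, 1293 and 1732 CPM in NP_Mrgprd and 0.93, 2.92, 2.37, 3.53 and 5.56 CPM in Th (log2 fold change 8.73 ± 0.16, adjusted p = 9.2e-12). In the other direction, 287 UMIs of C1ql4, a secreted C1q-like protein, were found in Th and 0 in NP_Mrgprd, so that it was at least 562-fold higher in Th. Cacna1i, the T-type calcium channel CaV3.3, stood at 36.3, 62.8, 44.2, 62.9 and 42.4 CPM in Th, with 748 UMIs against 1 in NP_Mrgprd, a ratio of 4398 [787 to 173943]. Tmem132c had 632 against 2 UMIs (1858 [512 to 15376]), Nxpe2 544 against 2 (1599 [441 to 13239]), Nccrp1 351 against 2 (1032 [284 to 8554]), the secreted protein gene Nell2 317 against 2 (932 [256 to 7729]) and AI504432 211 against 1 (1241 [220.3 to 49231]). Cd34, a sialomucin better known from blood progenitors and endothelium, was at 148 ± 21 CPM in Th against 0.167 ± 0.12 CPM in NP_Mrgprd (SD, n = 5; -9.69 ± 0.19, adjusted p = 9.2e-12), and Dgkk, a diacylglycerol kinase, at 51.4 ± 13.7 against 0.0549 ± 0.0894 CPM (-8.94 ± 0.27, adjusted p = 1.7e-10, -10.29 without library 5). Over all calls, 11 of 937 genes higher in NP_Mrgprd and 1 of 1128 higher in Th had no UMI in the other type. The NP_Mrgprd sums were deeper, at 4817413 to 43923828 UMIs against 1037872 to 4485331 in Th. A count of 0 is therefore easier to reach in Th, and these numbers of genes cannot be compared between the types. The ranges in brackets after the ratios are exact 95% counting intervals.

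The called genes with the highest levels in NP_Mrgprd were led by gamma-synuclein, Sncg, at 16807, 18156, 16366, 19424 and 18456 CPM against 9183, 8323, 7119.8, 8308 and 7829 CPM in Th (log2 fold change 1.13 ± 0.10, adjusted p = 9.0e-07). The tubulin genes Tuba1a (1.34 ± 0.13) and Tubb3 (1.12 ± 0.09), the calmodulin gene Calm2 (1.21 ± 0.16), the S100 protein gene S100a6 (1.43 ± 0.13), Sh3bgrl3 (1.31 ± 0.10) and the surface protein gene Cd24a (1.95 ± 0.12) followed. Without TMM scaling Sncg and Tubb3 were at 0.97 each, under the 2-fold limit. Tubulin and calmodulin genes have near-identical copies, between which reads can be split. Thioredoxin, Txn1 (1.13 ± 0.19), and annexin A5, Anxa5 (1.02 ± 0.14), were called with all libraries, but without library 4 they were at 0.95 and 0.86 and without library 5 at 0.96 for each, under the 2-fold limit. Among the abundant genes higher in Th were the noncoding RNA genes Meg3 (4571 ± 469.5 against 1197 ± 338 CPM, -1.98 ± 0.14) and Snhg11 (-1.09 ± 0.10), the kinesin heavy chain Kif5c (1054 ± 105 against 254 ± 23.3 CPM, -2.05 ± 0.10), the secreted synaptic protein gene Olfm1 (-2.41 ± 0.10), Fbxo9 (-1.93 ± 0.08), Ostf1 (-1.22 ± 0.09), Fkbp1b, a binding protein of ryanodine receptors (-1.22 ± 0.11), the Schwann cell gene Pmp22 (-1.18 ± 0.12), Pitpnc1 (-1.08 ± 0.09) and the BMP antagonist Nbl1 (-1.06 ± 0.08).

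Gene lists were then read one by one, each against the 9.04% and 10.9% of all genes tested that were called in the 2 directions. Of 14 receptors for lipid and inflammatory mediators tested, 10 were higher in NP_Mrgprd and 2 in Th, and the list's median log2 fold change was 1.96. Besides Agtr1a, Lpar3 and Ptgdr, the 10 included the prostaglandin E2 receptor Ptger1 (1116 UMIs against 3, a ratio of 63.3 [21.6 to 307]), the interferon gamma receptor subunit Ifngr1 (9.81 ± 2.97 against 0.676 ± 0.592 CPM, 3.56 ± 0.33, 4.39 without library 2) and F2rl2, the protease-activated receptor PAR3 (135 ± 9.25 against 11.7 ± 3.23 CPM, 3.51 ± 0.14). The exceptions were the histamine receptor Hrh3 (9.62 ± 1.31 CPM in Th against 0.199 ± 0.0868, -5.77 ± 0.29) and the sphingosine-1-phosphate receptor S1pr2 (-1.84 ± 0.22), the latter chosen after its values were seen. The Mas-related receptors, sensors of itch and pain ligands, held 5 tested genes, of which Mrgprd, Mrgpra2b (23.9 ± 3.62 against 0.366 ± 0.509 CPM, 6.04 ± 0.39, 6.95 without library 5) and Mrgpra2a (861 UMIs against 1, a ratio of 146 [26.2 to 5791]) were higher in NP_Mrgprd. Mrgpra2a and Mrgpra2b are near-identical, so their reads can be split. Mrgpre was higher in Th (-1.23 ± 0.20) with overlapping sums, and Mrgpra6 was not called (0.18 ± 0.11).

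The transient receptor potential (TRP) channels, cation channels for heat, cold and irritants, showed 5 of 12 tested genes higher in NP_Mrgprd and 1 higher in Th. Trpc6 stood at 28.7, 29.2, 37.2, 26.4 and 26.6 CPM in NP_Mrgprd and had 2 UMIs in Th, a ratio of 197 [54.5 to 1627]. Trpa1, the irritant receptor, was found in both types, at 54.4 ± 3.52 CPM against 14.8 ± 0.95 CPM (1.86 ± 0.11, adjusted p = 2.5e-08). The capsaicin receptor Trpv1 was low in NP_Mrgprd, at 8.97 ± 4.67 CPM, and lower in Th, at 0.58 ± 0.67 CPM (3.88 ± 0.36, adjusted p = 2.0e-06, 4.74 without library 5). Trpm3, a heat-activated channel (2.25 ± 0.30), was another, while Trpv4 was higher in Th (6.43 ± 1.84 against 0.254 ± 0.172 CPM, -4.52 ± 0.34). Trpm8, the cold receptor, had 1 UMI in NP_Mrgprd and 0 in Th and was not tested. Of the channels not called, Trpv2 was at 0.89 ± 0.12, and at 1.00 and past the limit without library 3. Candidate genes of mechanotransduction were even, with 2 of 10 tested higher in each type. Besides Piezo2, the TMEM63 channel genes Tmem63a (12.9 ± 1.26 against 0.468 ± 0.357 CPM, 5.14 ± 0.35) and Tmem63c (1.98 ± 0.20) were higher in NP_Mrgprd and Tmem63b higher in Th (192 ± 19.3 against 79.8 ± 7.49 CPM, -1.27 ± 0.10). Among acid-sensing and pacemaker (HCN) channels, 3 of 5 tested were higher in Th and 0 in NP_Mrgprd. Among them were the acid-sensing channel Asic1, at 29.8, 29.7, 27.2, 35.3 and 28.8 CPM in Th against 0.221, 0.413, 0.142, 0.17 and 0.231 CPM (-6.88 ± 0.21, adjusted p = 1.6e-10) and Hcn2 (-2.33 ± 0.16).

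Purinergic receptors and ectoenzymes divided evenly, with 3 of 10 tested genes higher in each type. NP_Mrgprd neurons had the ionotropic P2rx3, the ectonucleotidase Nt5e, which makes adenosine from AMP (49.3 ± 7.02 against 5.46 ± 0.579 CPM, 3.12 ± 0.14), and the adenosine receptor Adora2b (1.72 ± 0.22). Th neurons had the metabotropic receptors P2ry1 and P2ry2 (8.23 ± 2.11 against 0.539 ± 0.328 CPM, -4.04 ± 0.29) and the adenosine receptor Adora2a (6.01 ± 1.86 against 0.364 ± 0.258 CPM, -3.92 ± 0.31). Several other ionotropic genes were too low to test, and no direction is read from their raw counts. P2rx2 had 50 UMIs in Th and 26 in the deeper NP_Mrgprd sums, P2rx6 22 and 16, P2rx5 2 and 37, and P2rx7 0 and 9. Acpp, the prostatic acid phosphatase that marks non-peptidergic neurons, was not called, at 344 ± 21 CPM in NP_Mrgprd and 359 ± 35.3 CPM in Th (-0.06 ± 0.08, adjusted p = 0.5). Amine receptors were called in 2 of 7 tested genes for NP_Mrgprd and 3 for Th. Serotonin receptors stood on both sides, with the channel subunit Htr3b (9.3 ± 2.71 against 0.693 ± 0.736 CPM, 3.61 ± 0.34, 4.26 without library 5) and Htr4 (1.76 ± 0.27) higher in NP_Mrgprd, and Htr1d (37.4 ± 8.86 CPM in Th against 0.294 ± 0.219, -6.96 ± 0.26) and Htr5b (-1.4 ± 0.27) higher in Th, together with the beta-1 adrenergic receptor Adrb1 (-4.53 ± 0.34). Only 2 opioid and cannabinoid receptor genes could be tested, Oprl1 (-0.88 ± 0.32) and Cnr1 (3.84 ± 0.49), and neither passed all 3 criteria of a call. The mu opioid receptor Oprm1 had 50 UMIs in the deeper NP_Mrgprd sums and 0 in Th, and the delta receptor Oprd1 54 and 0, too few to test.

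Signal transduction below these receptors differed by isoform. Of 29 G protein and RGS genes tested, 10 were higher in NP_Mrgprd and 5 in Th. Rgs7 stood at 261, 264, 279, 311 and 307 CPM in NP_Mrgprd against 4.65, 8.1, 11.8, 6.1 and 13.2 CPM (4.99 ± 0.17, adjusted p = 2.9e-10), while Rgs5 stood at 209, 145, 236, 114 and 166 CPM in Th against 0.442, 0.551, 0.852, 0.341 and 0.36 CPM (-8.43 ± 0.15, adjusted p = 6.8e-12). RGS proteins speed the return of G proteins to rest. Rgs3 (2.80 ± 0.10) was higher in NP_Mrgprd, and the gamma subunit Gng4 (-4.83 ± 0.30) and Rgs11 (-3.85 ± 0.21) in Th, while the abundant Gnas (0.58 ± 0.08) and Rgs4 (0.14 ± 0.10) were not called. Diacylglycerol kinases, protein kinases C and phospholipases C, which act downstream of Gq, held 8 of 21 tested genes higher in NP_Mrgprd and 6 higher in Th. Phospholipase C beta 3, Plcb3, was at 115, 124, 145, 97.9 and 113 CPM in NP_Mrgprd and 0, 1.57, 2.37, 0 and 2.43 CPM in Th (6.39 ± 0.26, adjusted p = 1.3e-09). Protein kinase C alpha, Prkca, was at 389 ± 36.2 against 8.17 ± 1.35 CPM (5.57 ± 0.13, adjusted p = 2.9e-11). The diacylglycerol kinases Dgkg (5.41 ± 0.31, 6.31 without library 5) and Dgki (5.22 ± 0.31) were higher in NP_Mrgprd, and Dgkk in Th. Cyclic nucleotide enzymes leaned to Th, with 11 of 23 tested genes higher there and 3 higher in NP_Mrgprd. Adenylyl cyclase 1, Adcy1 (30.7 ± 6.48 CPM in Th against 0.188 ± 0.2, -7.01 ± 0.25), the calmodulin-dependent phosphodiesterases Pde1c (98.2 ± 14.7 against 4.3 ± 1.22 CPM, -4.66 ± 0.18) and Pde1b (-6.50 ± 0.39) and the cGMP-dependent kinase Prkg2 (-4.78 ± 0.34) were higher in Th. The regulatory subunit Prkar2b (238 ± 14.5 against 11.9 ± 2.8 CPM, 4.26 ± 0.12) and the phosphodiesterase Pde10a (1800 UMIs against 3, a ratio of 102 [34.9 to 495]) were higher in NP_Mrgprd.

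Voltage-gated sodium channels, which set the threshold and shape of the action potential, were mostly higher in Th. Of 15 tested subunit and partner genes, 10 were higher in Th and 3 in NP_Mrgprd, and the list's median log2 fold change was -2.34. The 3 were Scn11a, Scn10a and Fgf13. Scn11a, the persistent-current channel NaV1.9, stood at 258, 341, 381, 242 and 270.2 CPM in NP_Mrgprd and 78.1, 92.2, 89.5, 91.8 and 83 CPM in Th (1.76 ± 0.10, adjusted p = 3.0e-08). Scn10a, the nociceptor channel NaV1.8, stood at 244, 299, 288, 237 and 242 CPM against 69.8, 115, 93.5, 117 and 99.7 CPM (1.4 ± 0.11, adjusted p = 3.0e-07). Both channels were thus present in Th neurons at a lower level, without overlap. Fgf13, an intracellular partner of sodium channels, was at 1058 ± 77 against 245 ± 33.6 CPM (2.11 ± 0.09). Scn10a and Fgf13 were chosen after their values were seen. Among the genes higher in Th were Scn1a, the channel NaV1.1 (30.9 ± 5.19 CPM in Th against 0.333 ± 0.181, -6.59 ± 0.20), Scn8a, NaV1.6 (43.6 ± 9.35 against 2.86 ± 0.622 CPM, -3.94 ± 0.14), Scn3a (-4.86 ± 0.20) and the beta subunits Scn2b (34.8 ± 6.03 against 3.26 ± 1.21 CPM, -3.61 ± 0.20) and Scn4b (-2.85 ± 0.27). The pain-related channel NaV1.7, Scn9a, was not called, at 282 ± 50.4 CPM in NP_Mrgprd and 332 ± 82.9 CPM in Th with overlapping sums (-0.23 ± 0.08, adjusted p = 0.031).

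Potassium channels split by family. Voltage-gated members were higher in Th in 14 of 32 tested genes and in NP_Mrgprd in 5, with a list median of -0.68. Kcnd3, the A-type channel Kv4.3, was at 235, 297, 223, 305 and 263 CPM in Th and 23.9, 37.3, 31.7, 31.8 and 35 CPM in NP_Mrgprd (-3.05 ± 0.10, adjusted p = 2.7e-10), and Kcnh2, the ERG channel, at 25.4 ± 3.46 against 0.206 ± 0.194 CPM (-6.61 ± 0.31). Kcnh8 (-4.93 ± 0.29) and Kcnc1 (-3.03 ± 0.29) were also higher in Th, while Kcns3 (35.9 ± 6.04 against 2.58 ± 2.14 CPM, 3.90 ± 0.32) and Kcnq5 (425 UMIs against 0, at least 24.1-fold) were higher in NP_Mrgprd. Leak, inward rectifier and calcium-activated channels leaned the other way, with 8 of 16 tested genes higher in NP_Mrgprd, 3 higher in Th and a list median of 1.66. Kcnk12 (104 ± 5.63 against 1.93 ± 2.1 CPM, 6.14 ± 0.25), the background channel TRESK, Kcnk18 (29.7 ± 4.22 against 1.02 ± 1.25 CPM, 5.03 ± 0.39, 6.25 without library 5), the BK channel subunit Kcnmb1 (156 ± 13.6 against 3.68 ± 0.766 CPM, 5.35 ± 0.14) and the G protein-gated channel Kcnj3 (5.10 ± 0.41, 4.47 without library 2) were the largest of the 8. The inward rectifiers Kcnj12 (233 ± 32.1 against 40.8 ± 3.68 CPM, -2.53 ± 0.10) and Kcnj4 (131 UMIs against 2, a ratio of 385 [105 to 3214]) were higher in Th. Voltage-gated calcium channels were called in 5 of 13 tested genes for Th and 1 for NP_Mrgprd. Th neurons held the T-type channels Cacna1i and Cacna1h, the latter (CaV3.2) at 33.5, 39.1, 33.1, 34 and 24.7 CPM against 0.221, 0.688, 0.142, 0.341 and 0.257 CPM (-6.43 ± 0.20, adjusted p = 2.0e-10). The alpha2delta subunits Cacna2d2 (-2.62 ± 0.21) and Cacna2d3 (-2.52 ± 0.15) and Cacng5 (-5.11 ± 0.31) were higher there too, and the L-type channel Cacna1c was higher in NP_Mrgprd (30.9 ± 3.92 against 0.795 ± 0.61 CPM, 4.97 ± 0.25). The N-type channel Cacna1b was not called (-0.40 ± 0.09).

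Transmitters and peptides differed in part. Although NP_Mrgprd neurons are termed non-peptidergic, 3 of 9 tested neuropeptide genes were higher in them and 2 higher in Th. Calca, the precursor of calcitonin gene-related peptide, stood at 1156, 1132, 1255, 916 and 1074 CPM in NP_Mrgprd and 15.8, 32.2, 60.4, 52.3 and 84.1 CPM in Th (4.53 ± 0.25, adjusted p = 1.9e-08), and Calcb, its beta form, at 919.7 ± 77.8 against 302 ± 44.4 CPM (1.61 ± 0.12). The level of Calca was 13241.5 CPM in PEP1_S100a11.Tagln2, the highest type, and a UMI of it was found in 90.9% of Th cells beside 88.0% of satellite glia, so its presence in single Th cells was near the background. Neuromedin B, Nmb, was at 834, 847, 847, 965 and 933 CPM against 114, 50.8, 59.6, 31.1 and 44.1 CPM (4.02 ± 0.24, adjusted p = 3.6e-08). Th neurons held neuromedin U, Nmu (12.3 ± 3.27 against 0.645 ± 0.32 CPM, -4.67 ± 0.29), and, with overlapping sums, Pomc (-1.18 ± 0.21). Substance P, encoded by Tac1, was not called (-0.18 ± 0.11), and neither were Penk (-1.98 ± 0.63, -2.93 without library 2, -1.07 without library 5) and Cartpt (1.18 ± 0.35), although Cartpt passed with 1.43 without library 1 and with 1.65 without library 4. Both types held Slc17a6, the vesicular glutamate transporter VGLUT2 of nociceptors (112 ± 7.8 CPM in NP_Mrgprd and 187 ± 7.27 CPM in Th, -0.74 ± 0.08, not called), and Th neurons had VGLUT3 in addition. The vesicle protein Sv2a was at 54 ± 4.28 CPM in Th and 0.291 ± 0.238 CPM in NP_Mrgprd (-7.53 ± 0.25, adjusted p = 2.7e-10), so that 2 of 4 tested transporter and vesicle genes were higher in Th and 0 in NP_Mrgprd.

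Of the catecholamine enzymes, those downstream of Th were at or near 0 in both types. Of 7 tested genes of the list, Th and the tetrahydrobiopterin enzyme Pts (71.2 ± 11.8 against 31.5 ± 1.7 CPM, -1.15 ± 0.10) were higher in Th, whereas the other enzymes of tetrahydrobiopterin, the cofactor of tyrosine hydroxylase, were higher in NP_Mrgprd. These were Gch1, which starts its synthesis (7.07, 5.85, 5.82, 6.93 and 6.5 CPM in NP_Mrgprd against 0, 0.45, 0.394, 0 and 1.04 CPM in Th, 3.85 ± 0.41, adjusted p = 6.1e-06, 4.46 without library 5), Spr (169 ± 10.9 against 65.6 ± 9.89 CPM, 1.37 ± 0.12) and Qdpr (274 ± 25.3 against 84.9 ± 10 CPM, 1.70 ± 0.09). The next enzymes of the pathway were too low to test in either type. DOPA decarboxylase, Ddc, had 1 UMI in NP_Mrgprd and 0 in 232 Th cells, and dopamine beta-hydroxylase, Dbh, 0 in both. The vesicular monoamine transporter Slc18a2 had 12 UMIs in Th and 40 in the deeper NP_Mrgprd sums. A UMI of it was found in 5.17% of Th and 4.22% of NP_Mrgprd cells. A count of 0 in 232 cells allows a share of up to 1.29% of cells with a UMI, taken as 3 of 232.

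Receptors for fast transmission and the release machinery followed. GABA-A receptors and chloride transporters were higher in Th in 7 of 13 tested genes and in NP_Mrgprd in 0, with a list median of -1.49. Gabra3 (22.4 ± 3.12 CPM in Th against 0.0816 ± 0.0747, -7.66 ± 0.29), Gabrb2 (-6.60 ± 0.39), Gabrb1 (-5.04 ± 0.25), Gabra2 (-1.77 ± 0.14) and the potassium chloride cotransporter Slc12a7 (28 ± 6 against 0.488 ± 0.221 CPM, -5.62 ± 0.21) were among the 7. The GABA-B receptor Gabbr1 was not called (-0.14 ± 0.09). Glutamate receptors were called in 4 of 9 tested genes for NP_Mrgprd and 2 for Th. The kainate receptor Grik1 (575 ± 24.4 against 252 ± 33.4 CPM, 1.19 ± 0.09), the metabotropic receptor Grm7 (2.04 ± 0.14) and the AMPA receptor subunits Gria1 (1.56 ± 0.17) and Gria2 (1.58 ± 0.16) were higher in NP_Mrgprd, and Gria3 (-6.20 ± 0.40) and the NMDA receptor subunit Grin3a (-3.39 ± 0.25) in Th. Of 27 synaptotagmins, SNAREs and complexins tested, 19 were not called. Syt4 (1048 ± 38.3 against 237 ± 37.7 CPM, 2.15 ± 0.09), Syt6 (2.80 ± 0.12) and the priming factor Unc13c (77.9 ± 11.8 against 2.06 ± 0.686 CPM, 5.21 ± 0.16) were among 5 higher in NP_Mrgprd, and Syt3 (23.6 ± 2.96 CPM in Th against 0.149 ± 0.042, -7.34 ± 0.21) and the complexin Cplx2 (-2.53 ± 0.13) among 3 higher in Th, while Syt1 (-0.64 ± 0.08) and Vamp2 (0.22 ± 0.08) were not called.

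**Figure D4:**
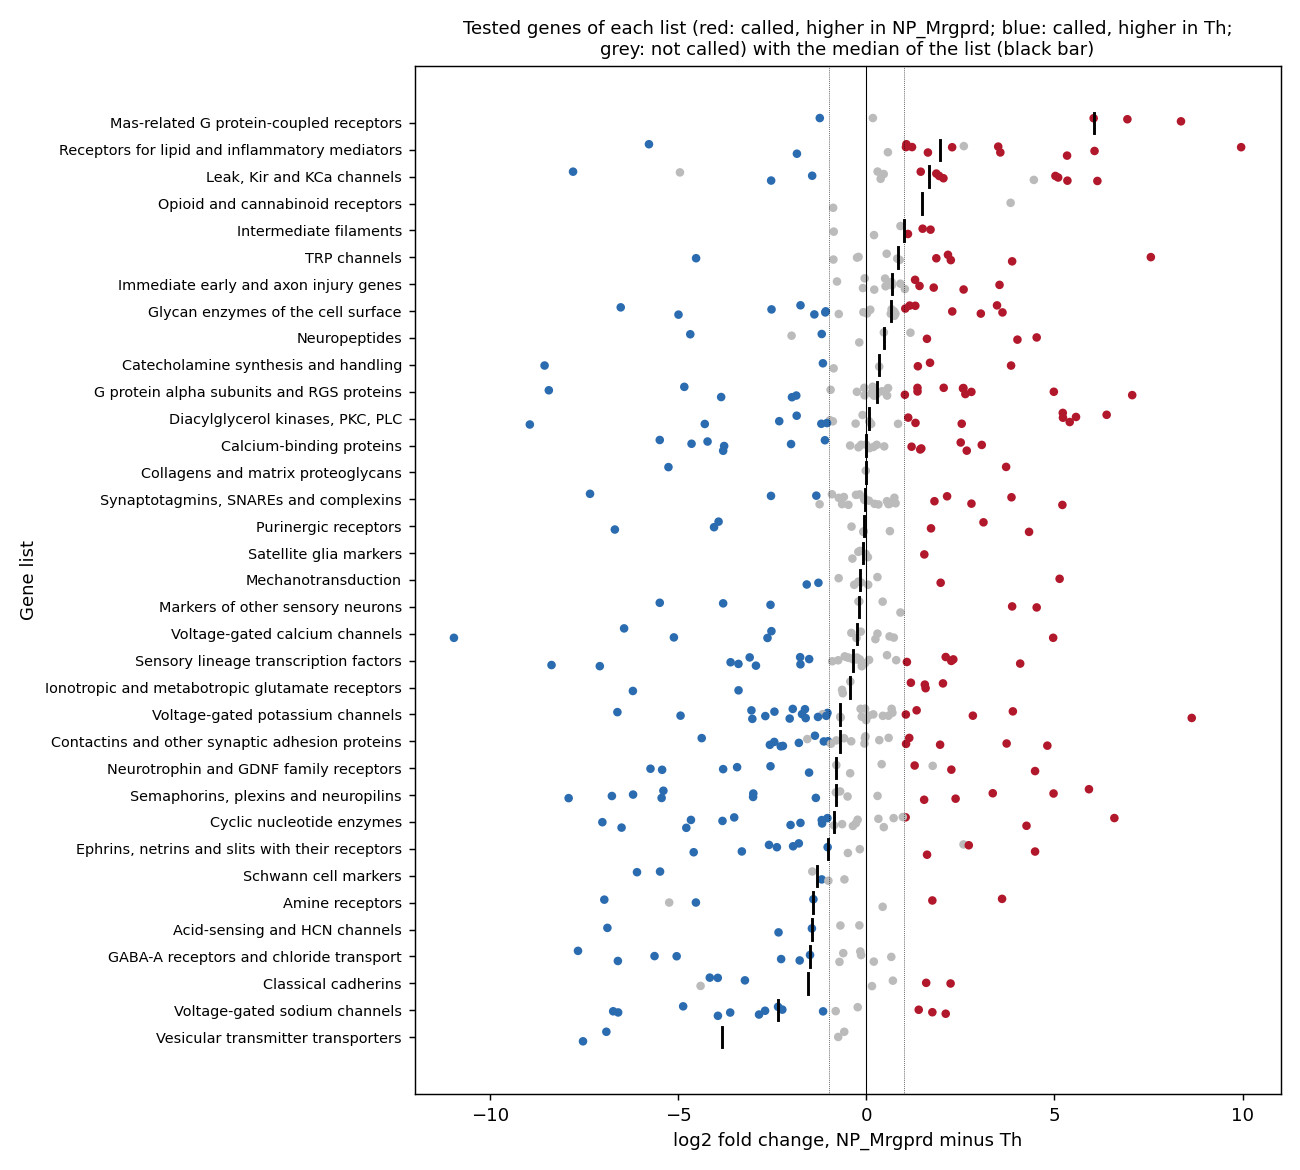
Log2 fold change (NP_Mrgprd minus Th) of every tested gene in 35 gene lists, with genes called higher in NP_Mrgprd in red, higher in Th in blue and not called in grey, and the median of each list as a black bar. Mas-related receptors, mediator receptors and leak, inward rectifier (Kir) and calcium-activated (KCa) potassium channels have the highest medians of the lists with at least 5 genes, and sodium channels, cadherins and GABA-A receptors the lowest.

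Growth factor receptors and transcription factors mark the lineages. Ret (-0.43 ± 0.08) was not called, at 345 ± 34.6 CPM in NP_Mrgprd and 463 ± 60.4 CPM in Th, whereas its coreceptor Gfra1 was higher in NP_Mrgprd (35.5 ± 2.66 against 1.46 ± 0.739 CPM, 4.49 ± 0.20, adjusted p = 3.1e-09). Over the list, 3 of 13 tested genes were higher in NP_Mrgprd and 6 in Th. The neurotrophin receptors Ngfr (141 ± 19.8 CPM in Th against 2.48 ± 1.32, -5.73 ± 0.17), Ntrk3 (93.6 ± 15.3 against 15.8 ± 4.04 CPM, -2.54 ± 0.12) and Ntrk2 (19.2 ± 4.25 against 1.33 ± 0.303 CPM, -3.80 ± 0.21) and the ciliary neurotrophic factor receptor Cntfr (-5.42 ± 0.25) were higher in Th. Transcription factors of the sensory lineage were called in 9 of 29 tested genes for Th and 5 for NP_Mrgprd. Runx1, the factor both lineages share, was not called, at 196, 191, 205, 196 and 179 CPM in NP_Mrgprd and 209, 222, 206, 232 and 214 CPM in Th (-0.17 ± 0.08, adjusted p = 0.078, chosen after its values were seen). Besides Zfp521 and Pou4f2, Tbx3 (18.7 ± 6.51 CPM in Th against 0.16 ± 0.183, -7.08 ± 0.38, -7.85 without library 2, -6.38 without library 5) and Zfp423 (-3.39 ± 0.20) were higher in Th, and Bnc2 (24.2 ± 4.03 against 1.63 ± 0.783 CPM, 4.09 ± 0.23) higher in NP_Mrgprd. The sensory neuron factors Isl2 (-0.12 ± 0.14), Klf7 (0.08 ± 0.11) and Tlx3 (-0.90 ± 0.08) were not called.

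Genes of axon guidance and adhesion, through which neurons find and hold their targets, were divided with more members on the side of Th. Of 17 semaphorins, plexins and neuropilins tested, 8 were higher in Th and 5 in NP_Mrgprd. Neuropilin 1, Nrp1, stood at 246, 312, 252, 377 and 346 CPM in Th and 0, 2.68, 2.42, 0.909 and 0.822 CPM in NP_Mrgprd (-7.91 ± 0.32, adjusted p = 1.1e-09). Nrp2 (37.6 ± 6.87 against 0.808 ± 0.504 CPM, -5.44 ± 0.21), Sema3e (57.5 ± 6.76 against 0.667 ± 0.315 CPM, -6.76 ± 0.20), Plxna4 (55.1 ± 10.2 against 0.791 ± 1.15 CPM, -6.19 ± 0.36, -7.32 without library 2) and Sema7a (-5.39 ± 0.32) were also higher in Th. Sema7a encodes a ligand of the receptor encoded by Plxnc1, which was higher in NP_Mrgprd, as was Plxnd1 (51.6 ± 9.66 against 0.731 ± 1.02 CPM, 5.92 ± 0.33, 6.91 without library 5), which encodes a receptor of Sema3e. Ephrins, netrins and slits with their receptors were higher in Th in 7 of 13 tested genes, among them Efnb1 (-2.58 ± 0.14), Efnb2 (-3.30 ± 0.17) and Unc5a (-4.58 ± 0.22), and higher in NP_Mrgprd in 3, among them Ephb6 (400 UMIs against 3, a ratio of 22.7 [7.7 to 110.4]). Of 8 classical cadherins tested, Cdh9, Cdh10 (-3.94 ± 0.18) and Cdh2 (-3.22 ± 0.22) were higher in Th, and Cdh8 (2.24 ± 0.43, 3.02 without library 3) and Cdh15 (1.59 ± 0.19) in NP_Mrgprd. Contactins and other adhesion proteins were higher in Th in 9 of 24 tested genes, such as Cntn1 (103 ± 23.5 against 20.1 ± 5.33 CPM, -2.44 ± 0.19) and Tenm4 (-4.37 ± 0.19), and in NP_Mrgprd in 5, such as Cadm2 (39.9 ± 2.83 against 1.4 ± 1.39 CPM, 4.81 ± 0.28, 5.63 without library 5) and Cntnap4 (3.73 ± 0.41, 4.35 without library 5). Glycan enzymes of the cell surface were even, with 7 of 23 tested higher in each type. Ggta1, which makes the alpha-galactose epitope bound by the lectin IB4, was higher in NP_Mrgprd (15.1 ± 0.868 against 1.44 ± 0.884 CPM, 3.48 ± 0.27, adjusted p = 3.3e-07), as were the sialyltransferases St3gal1 (3.62 ± 0.52, 3.01 without library 2) and St8sia1 (3.05 ± 0.26), while the ganglioside enzyme St3gal5 (49.8 ± 11 against 0.503 ± 0.477 CPM, -6.52 ± 0.25) and A4galt (-4.99 ± 0.29) were higher in Th. Of the collagens and proteoglycans only 3 could be tested, with Col23a1 higher in NP_Mrgprd (3.72 ± 0.35), neurocan, Ncan, higher in Th (-5.25 ± 0.31) and decorin, Dcn, not called (-0.01 ± 0.93, -1.71 without library 3).

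Among cytoskeletal genes, 3 of 6 tested intermediate filaments were higher in NP_Mrgprd and 0 in Th. Neurofilament light chain, Nefl, a gene best known from large myelinated neurons, stood at 3072, 2424, 2796, 2656 and 2415 CPM in NP_Mrgprd and 906, 865, 1164, 835 and 949.7 CPM in Th (1.5 ± 0.10, adjusted p = 7.7e-08), and Nefm (632 ± 58.9 against 193 ± 27.1 CPM, 1.71 ± 0.10) and Ina (1.11 ± 0.12, but 0.95 and under the limit without TMM scaling) were higher too. NF_Ca1b1, as the annotation spells it, was the type with the highest Nefl, at 6540.0 CPM. Peripherin, Prph, the filament of small neurons, was not called (6357 ± 161 CPM in NP_Mrgprd and 5516 ± 639 CPM in Th, 0.21 ± 0.09). Calcium-binding proteins were called in 6 of 21 tested genes for NP_Mrgprd and 7 for Th. Pcp4, a modulator of calmodulin, was at 726, 508, 673, 512 and 625 CPM in Th against 17.9, 27.5, 31, 16.5 and 29.1 CPM (-4.64 ± 0.16, adjusted p = 3.8e-10), and Necab2 (-5.49 ± 0.17), Necab3 (207 ± 22.1 against 15.1 ± 1.57 CPM, -3.77 ± 0.09), hippocalcin, Hpca (-4.22 ± 0.13), and Hpcal1 (329.6 ± 27 against 23.5 ± 3.64 CPM, -3.80 ± 0.13) were higher in Th as well. S100a11 was higher in NP_Mrgprd (169 ± 44.1 against 23.4 ± 28 CPM, 3.07 ± 0.39, 3.89 without library 2), with library 2 standing out among the Th sums. Immediate early and axon injury genes were higher in NP_Mrgprd in 5 of 16 tested genes and in Th in 0, with a list median of 0.68. Jun (252 ± 51.7 against 93.6 ± 9.45 CPM, 1.42 ± 0.10), Ier2 (1.79 ± 0.14), Gap43 (47.9 ± 12.7 against 7.87 ± 6.98 CPM, 2.59 ± 0.21), Sox11 (1.30 ± 0.13) and Flrt3 (3.54 ± 0.16) were called, and Fos (0.51 ± 0.09), Junb (0.50 ± 0.11) and Jund (-0.09 ± 0.10) were not.

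Markers of other cells were checked in the same sums. Satellite glia markers summed to between 268 and 448 CPM in NP_Mrgprd and between 223 and 479 CPM in Th, against 117713 CPM in satellite glia, and 1 of 6 tested was called, Aldoc, higher in NP_Mrgprd (1.54 ± 0.23). Apoe (-0.21 ± 0.14) and Fabp7 (-0.37 ± 0.20) were not called. Schwann cell markers summed to between 630 and 751 CPM in NP_Mrgprd and between 1502.5 and 1967 CPM in Th, without overlap, and 3 of 6 tested were higher in Th and 0 in NP_Mrgprd. The 3 were Pmp22, Pllp (-5.48 ± 0.29) and myelin basic protein, Mbp, at 206, 240.2, 158, 227 and 175 CPM in Th and 1.11, 2.89, 1.85, 4.09 and 3.31 CPM in NP_Mrgprd (-6.09 ± 0.18, adjusted p = 1.4e-10). The myelin-associated glycoprotein gene Mag had 3 UMIs in the deeper NP_Mrgprd sums and 1 in Th. The part of Schwann cell RNA in the difference of Mbp was not tested. Endothelial markers summed to at most 2.42 CPM in NP_Mrgprd and 1.58 CPM in Th, macrophage markers to at most 2.96 and 4.5 CPM, and fibroblast markers to at most 8.81 and 6.75 CPM, and none of their genes passed the filter on low counts. The level of Cd34 in Th cells stood beside endothelial markers at or near 0, and the part of endothelial RNA in it was not tested. Of 9 tested markers of other sensory neurons, Calca and Trpv1 were higher in NP_Mrgprd and Necab2, Ntrk2 and Ntrk3 in Th, while Pvalb (-0.21 ± 0.20), Htr3a (0.44 ± 0.32) and Nefh (0.91 ± 0.09) were not called.

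The genes that separate the types were followed over the other 12 annotated types, of which 10 are neurons. NP_Mrgprd had the highest level of all 14 types in 247 of its 937 genes (26.4%), and Th in 290 of its 1128 (25.7%). For the genes higher in NP_Mrgprd, the type most often nearer to NP_Mrgprd than to Th was NP_Mrgpra3, in 730 of 937 genes (77.9%), followed by NP_Nts in 563 (60.1%) and PEP1_S100a11.Tagln2 in 543 (58.0%). For the genes higher in Th, the types most often nearer to Th were NF2_Ntrk2.Necab2, in 735 of 1128 genes (65.2%), NF_Ca1b1 in 716 (63.5%) and NF_Pvalb in 645 (57.2%), whereas NP_Mrgpra3 was nearer to Th in 233 (20.7%). Ly86 reached 608 CPM in NP_Mrgpra3, and Gna14 was highest in NP_Nts at 214 CPM. P2ry1 was at 428 CPM in the A-delta touch neurons NF2_Ntrk2.Necab2 and 442 CPM in Th, Nrp1 at 319 and 307 CPM, and Cacna1h at 127 and 32.9 CPM, differences between these 2 types that were not tested. In contrast, the highest other neuron type held 3.72 CPM of Agtr1a, 0.355 CPM of Cacna1i, 0.71 CPM of Ceacam10 and 15.6 CPM of Fam19a4. The Pearson correlation of log2(CPM + 1) across 16248 genes between NP_Mrgprd and Th was 0.927 ± 0.00683 (SD over 5 libraries) and ranked 12 of the 66 pairs of neuron types, beside 0.953 for NP_Mrgprd with NP_Mrgpra3 and 0.908 for Th with NF2_Ntrk2.Necab2. The ranks are a description, since pairs share types, libraries and genes, and genes are not independent replicates.

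**Figure D5:**
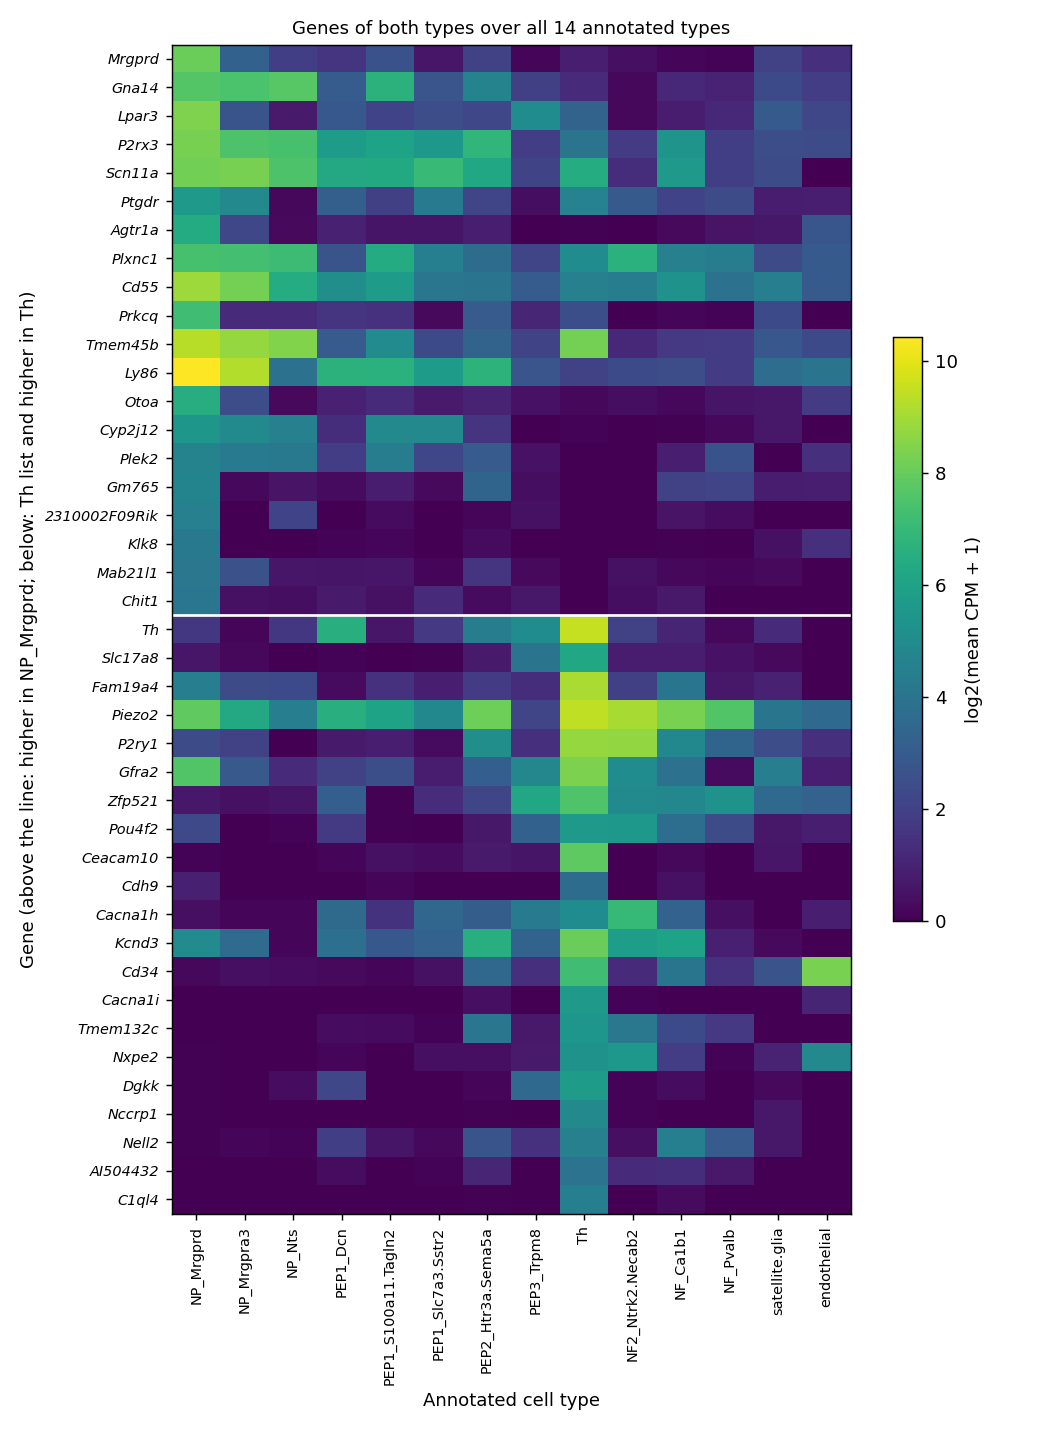
Mean level, as log2(mean CPM + 1) over 5 libraries, of the markers named in the text and of the 10 genes per direction with the largest folds, in all 14 annotated types. Genes above the white line are higher in NP_Mrgprd and often also high in NP_Mrgpra3, and those below belong to the Th side, where Piezo2, P2ry1 and Cacna1h are also high in NF2_Ntrk2.Necab2 and Cacna1i, Ceacam10 and C1ql4 are near 0 in the other neuron types.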

How the data were processed

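Single-cell libraries of lumbar DRG from 5 mice were analysed. The authors deposited 1 matrix of raw UMI counts per gene and cell, made with Cell Ranger and Seurat on mm10 per the labels and the study's methods, together with the cell type of each cell. The matrix held 17271 rows, of which 4 vector rows (143 UMIs, 6.37e-05% of all) were left out. No doublet caller was run, since the deposited cells had been filtered and annotated by the authors.

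UMI counts were summed per library and type. Genes were kept by filterByExpr and the 5 NP_Mrgprd and 5 Th sums compared with edgeR 4.0.16 (quasi-likelihood, TMM, library as a block) in R 4.3.3, with Benjamini-Hochberg adjustment over 10368 genes. A call needed an adjusted p under 0.01, at least 2-fold and a UMI in at least 25% of cells of the higher type. Blocking rests on both types coming from the same mouse, and deviations of same-library sums correlated by 0.102 to 0.354. DESeq2 1.42.0 and the other alternatives are in the closing section. Single values were tested with exact sign-flip tests in Python 3.11.15 with scipy 1.17.1. The scripts were tested on simulated data. Printed CPM are TMM-scaled.

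Members and lists were chosen with earlier results of these data known. Named were Mrgprd and Th, per direction the 10 largest folds in the same direction in 5 libraries and the 10 highest levels, all tested markers, per other list up to 6 called members by fold and up to 3 uncalled by level, and 5 abundant genes with an interval within 1.2-fold. Fgf13, Runx1, S1pr2 and Scn10a, and the genes too low to test, were named after their values were seen. Some genes that this rule names are not reported here.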

Additional observations from a re-analysis of the deposited data

Results flagged for a closer look

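Each value here belongs to 1 library whose gap to the nearest of the other 4, divided by the range of the 5 sums of that type, passed Dixon's 95% critical value of 0.71. Chance flags about 1 in 20 groups. Of 482 groups tested over 236 named genes and the measures per cell, 43 passed. In 7 of them all UMIs of the gene in that type came from 1 library and the other 4 were at 0, so that they passed by construction and the chance rate does not apply. Values are CPM, and no explanation was weighed.

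Among the NP_Mrgprd sums, library 1 stood above the range of the other 4 (in parentheses) with 0.221 for Nccrp1 (0 to 0.0568), 7.3 for Oprl1 (0.899 to 2.56) and 0.221 for Syt3 (0.114 to 0.142). In the NP_Mrgprd sums, library 2 stood above the range of the other 4 (in parentheses) with 0.0688 for AI504432 (0 to 0), 0.482 for Cacng5 (0.128 to 0.227), 28.4 for Dgki (18 to 20.2), 2.82 for Plxna4 (0 to 0.426), 7.23 for Th (0.668 to 1.25), 0.551 for Trpv4 (0.128 to 0.227) and 1.38 for Zfp521 (0.385 to 0.442). Over the NP_Mrgprd sums, library 3 stood above the range of the other 4 (in parentheses) with 0.284 for Ceacam10 (0 to 0.0771), 104 for Dcn (0.442 to 14.9), 1.28 for Gng4 (0.341 to 0.565), 341 for Jun (212 to 248), 0.142 for Nell2 (0 to 0.0257), 371 for Scn9a (248 to 273), 37.2 for Trpc6 (26.4 to 29.2) and 95.8 for Trpv2 (75.6 to 81.3). Among the NP_Mrgprd sums, library 3 stood below the others with 6082 for Prph (6385 to 6499). In the NP_Mrgprd sums, library 4 stood above the range of the other 4 (in parentheses) with 0.0568 for Cacna1i (0 to 0) and 12.7 for Mrgpra2a (9.06 to 10.1). Over the NP_Mrgprd sums, library 4 stood below the others with 3.75 for Kcnq5 (5.42 to 5.82). Among the NP_Mrgprd sums, library 5 stood above the others with 0.0514 for Tmem132c (0 to 0). In the Th sums, library 1 stood above the range of the other 4 (in parentheses) with 11.2 for Gria3 (6.25 to 7.65) and 5.58 for Kcnk12 (0.321 to 1.57). Over the Th sums, library 2 stood above the range of the other 4 (in parentheses) with 0.225 for Agtr1a (0 to 0), 61.4 for Dcn (0.394 to 5.21), 20.2 for Gap43 (3.72 to 6.25), 43.6 for Hcn2 (20.9 to 27), 13.7 for Pllp (8.28 to 9.3) and 72.9 for S100a11 (3.53 to 14.2). Among the Th sums, library 3 stood above the range of the other 4 (in parentheses) with 26 for Gabrb1 (7.29 to 11.2) and 479.7 for Scn9a (286 to 303). In the Th sums, library 3 stood below the range of the other 4 (in parentheses) with 9.86 for AI504432 (15.7 to 16.7), 1753 for Eif1 (2321 to 2479) and 519.5 for Vamp2 (682 to 723). Over the Th sums, library 4 stood above the others with 0.321 for Mrgpra2a (0 to 0). Among the Th sums, library 5 stood above the range of the other 4 (in parentheses) with 3.82 for Cadm2 (0.321 to 1.12), 0.347 for Cyp2j12 (0 to 0), 4.52 for Gna14 (0 to 1.18), 14.9 for Syt6 (9.3 to 10.9), 0.695 for Trpc6 (0 to 0) and 1.74 for Trpv1 (0 to 0.45).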

How the results depend on the processing

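The genes called numbered 2065, with 937 higher in NP_Mrgprd and 1128 higher in Th, and between 1944 and 2206 when each library was left out in turn, with 834 to 1047 and 1110 to 1159 in the 2 directions. Without a minimum fold 4844 genes were called, 2390 higher in NP_Mrgprd and 2454 higher in Th, with the rules on the adjusted p and the share of cells kept. The counts stayed within 1.5 times of these under each other setting run. They were 937 and 1103 with DESeq2, 748 and 1348 without TMM, which moved the median log2 fold change of all genes from -0.01 to -0.17, 639 and 824 with cells thinned to 20000 UMIs, 846 and 1125 with equal numbers of cells, and 914 and 1148 without cells over 10% mitochondrial UMIs. Leaving out the 19 NP_Mrgprd cells that held Th, a setting chosen after seeing the data, gave 939 and 1138. The fit without the replicate block, which ignores the pairing of types by mouse, gave 929 and 1127 and changed no call among the 305 named genes. Of 213 genes named in the text that had over 3 UMIs in both types, the fold moved by over 1.5 times for 16 with thinned cells, 12 with equal numbers of cells, 7 with DESeq2, 6 without the NP_Mrgprd cells that held Th, 8 without library 2, 2 without library 3 and 13 without library 5. No named gene changed sign under the 15 settings run over them. Of 209 named genes that were called, 202 kept the call under all of these settings in which they were tested, and 7 fell under the 2-fold limit in at least 1. Without TMM all 7 did, Tubb3 (0.97), Sncg (0.97), Ina (0.95), Ptgdr (0.90), Tmem45b (0.88), Anxa5 (0.87) and Txn1 (0.98). Of 96 not called, 5 passed in at least 1. Median genes per cell turned from higher to lower in NP_Mrgprd after thinning, by -0.0951 on the log2 scale. Leaving out each library gave 0.140 to 0.176 for that log2 difference without thinning, 0.872 to 0.988 for UMIs per cell and -3.49 to -2.87 percentage points for the mitochondrial share. In simulated data for this comparison with 9993 genes, the spread between sums was assumed and not estimated from these counts. There the adjusted p passed the threshold for 14% of genes changed 1.5-fold, 64% of those changed 2-fold and 100% of those changed 4-fold. These shares hold for the assumed spread only. How many differences near 2-fold the fit to the real counts missed was not tested.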
